A study of Homo sapiens with 25 samples.

Results

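Aminoacyl-tRNA synthetases are the enzymes that join each amino acid to its transfer RNA. The 35 synthetase genes described here were taken from a fixed list and comprise 19 genes of the cytosolic enzymes and 16 of the mitochondrial enzymes, out of 63086 genes in the count files. Their mRNAs were measured by RNA immunoprecipitation sequencing (RIP-seq), in which an RNA-binding protein is captured from a cell lysate and the RNA that comes with it is sequenced. The bait was IGF2BP1 fused to mCherry and caught on RFP-Trap beads, and the cells were HCT116, a human colorectal carcinoma line.

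All fusion lines carried knockouts of IGF2BP2 and IGF2BP3 and the Tet-OsTIR1-PURO cassette, and expressed mCherry-IGF2BP1 as WT (wild-type), as the phosphomimetic mutants S181E (linker 1) or Y396E (linker 2), or as RQ, in which arginines of the RGG motif in linker 1 were changed to glutamine. Each line was a lentivirally transduced population sorted through a narrow mCherry gate. Cells received PBS as the control or 500 µM sodium arsenite for 2 h, an oxidative stress. There were 3 libraries per line and treatment, except 2 for RQ in arsenite, which makes 23 fusion libraries. Parental HCT116 cells, which had no fusion protein, gave 1 background library per treatment. The paper calls these cells nonengineered, so they may also differ from the fusion lines in the knockouts and the transduction.

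The cytosolic enzymes charge the transfer RNAs used by cytosolic ribosomes, and a separate, nuclear-encoded set works inside mitochondria. GARS1 and KARS1 each make the enzyme of both compartments, and EPRS1 makes a fused glutamyl- and prolyl-tRNA synthetase. EPRS1, IARS1, KARS1, LARS1, MARS1, QARS1 and RARS1 belong to the multi-tRNA synthetase complex, which is held together by scaffold proteins such as AIMP1 and AIMP2. Many cytosolic synthetase genes are known targets of ATF4, a transcription factor of the integrated stress response that binds amino acid response elements in promoters.

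The fusion libraries held 22246381 to 60273548 counted reads. Mitochondrial ribosomal RNA took 31.8 to 38.2% of the counts in the 12 control libraries and 22.2 to 30.1% in the 11 arsenite libraries. Levels are therefore given as counts per 1000000 protein-coding reads (CPM). The bait's own mRNA, IGF2BP1, had 37.2 to 123 CPM in the fusion libraries and no read in either parental library. Of the epithelial markers, EPCAM, KRT8, KRT18, CDH1 and CLDN4 were present in every fusion library while VIL1 stayed at or below 0.738 CPM. The summed level of the 6 epithelial markers was 674 to 1277 CPM in control and 1437 to 2107 CPM in arsenite libraries, and 8 markers of other cell types summed to at most 14.1 CPM, with PTPRC at 0 throughout. The part of these shifts in the results was not tested. The parental control library stood apart. It held 1238013 reads, and 3572 of the 8734 genes tested had no read in it. The parental arsenite library held 18942497 reads and 34 such genes.

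A gene was tested when it exceeded 10 CPM in more than 11.5 of the 23 fusion libraries. All 19 cytosolic members exceeded 10 CPM in all 23 libraries. Among the mitochondrial members 10 of 16 were tested, and AARS2, FARS2, PARS2, SARS2, VARS2 and WARS2 were not. A count over the 10 therefore does not describe the mitochondrial enzymes as a whole, and members near the limit, such as TARS2 with 15 libraries above 10 CPM, had a better chance to pass if they were higher in one treatment. VARS2 had no read in any library. All of its 4073 exonic bases also belong to another gene on the same strand (ENSG00000288473), and reads that fell on more than 1 gene were left out by the counting, so its level is not known here. SARS2 shares 1492 of its 2082 exonic bases in the same way, and its levels are uncertain.

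Per kilobase of exon, the cytosolic mRNAs were more abundant in the wild-type IGF2BP1 RIP than the mitochondrial ones. In wild-type control libraries the median level was 16.5 CPM per kb over the 19 cytosolic and 4.37 CPM per kb over the 16 mitochondrial members, beside 10.1 CPM per kb over all genes tested. In arsenite the medians were 36.4, 5.26 and 10.8 CPM per kb. The mitochondrial medians include the untested members, with VARS2 entered as 0, whereas the medians over all genes cover only genes that passed the limit. KARS1 had the highest level per kb under control conditions with 67.2 CPM per kb, just ahead of QARS1 with 66.2, which is within the spread between replicates. After arsenite GARS1 was first with 243 CPM per kb, followed by KARS1 with 189 and VARS1 with 153. The highest mitochondrial members were RARS2 with 19.3 CPM per kb in control and IARS2 with 33.9 CPM per kb in arsenite libraries.

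The comparison of arsenite with control asked how the RNAs recovered with IGF2BP1 changed under stress. In wild-type cells 17 of the 19 cytosolic mRNAs rose, QARS1 fell, and RARS1 did not pass the test. Calls required an adjusted p under 0.05 in edgeR's quasi-likelihood test and a change above 20%. Of all genes tested, 35.4% were called higher and 31.8% lower. The median log2 fold change was 1.36 over the cytosolic members and 0.03 over all genes. Among the 10 tested mitochondrial members IARS2, HARS2, LARS2 and CARS2 rose, the other 6 did not pass, and the median was 0.34. Total RNA levels were not analysed here, and more RNA in the cell cannot be told apart from more RNA bound per molecule in these values.

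**Figure D1:**
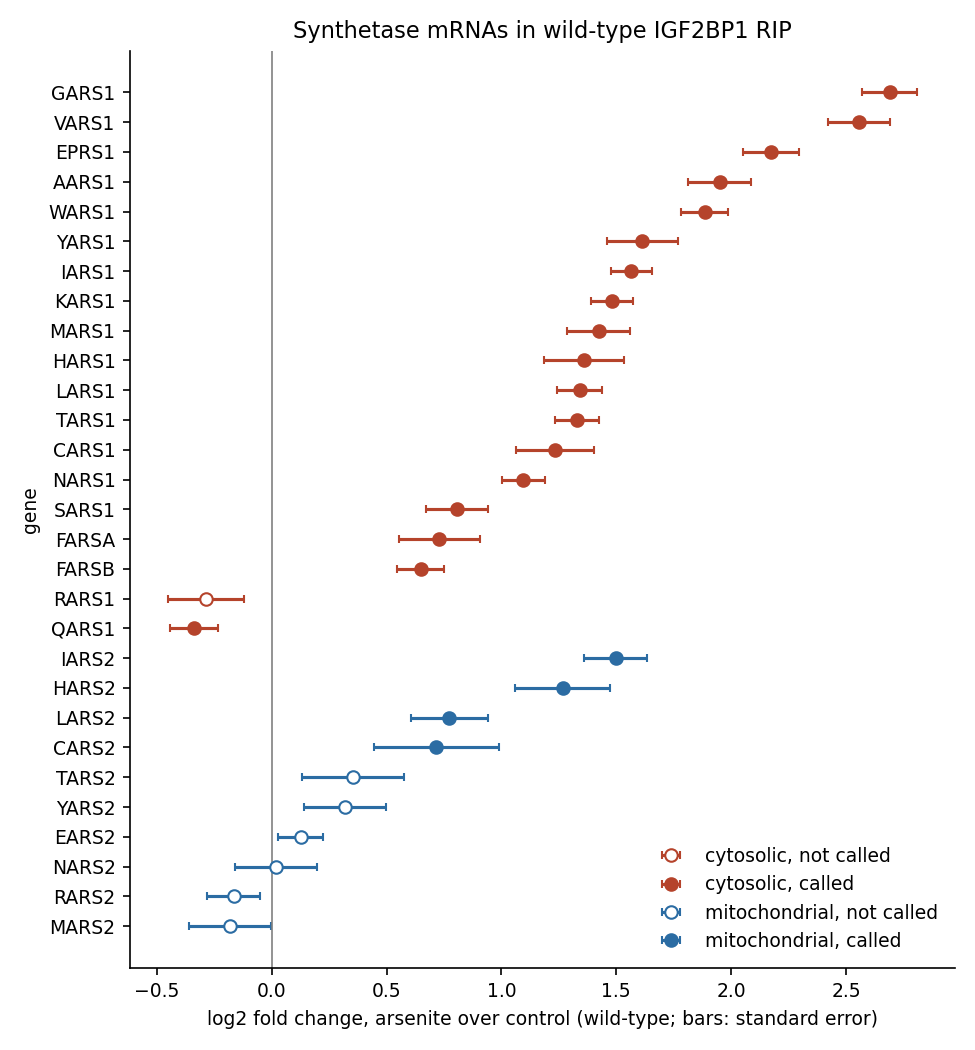
Log2 fold change of the 29 tested synthetase mRNAs, arsenite over control, in wild-type IGF2BP1 RIP (x axis), with each gene on a row and bars for the standard error; cytosolic members are red, mitochondrial blue, and filled points were called. The cytosolic genes run from -0.34 (QARS1) to 2.69 (GARS1), and 4 mitochondrial genes lie clear of 0.

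GARS1, the glycyl-tRNA synthetase of both compartments, had the largest change of all members. Its levels were 126, 100.4 and 111 CPM in the 3 wild-type control libraries and 729, 724 and 743 CPM after arsenite. The groups were far apart, and the log2 fold change was 2.69 (SE 0.12, edgeR adjusted p = 2.66e-14). VARS1, the valyl-tRNA synthetase, had 110.5, 95.9 and 112 CPM in control and 622, 669 and 596 CPM in arsenite libraries, a log2 fold change of 2.56 (SE 0.14, edgeR adjusted p = 2.82e-13). EPRS1 had 54.7, 69.7 and 72.2 CPM in control and 296, 269 and 326 CPM in arsenite libraries, a log2 fold change of 2.17 (SE 0.12, edgeR adjusted p = 5.29e-13). In each of these genes every arsenite library lay above every control library.

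Smaller rises were seen for both subunits of the cytosolic phenylalanyl-tRNA synthetase. FARSA, the alpha subunit, had 49.1, 46.5 and 24.4 CPM in control and 64.6, 66.3 and 70.8 CPM in arsenite libraries, with a log2 fold change of 0.73 (SE 0.18, edgeR adjusted p = 0.000911). FARSB, the beta subunit, had 51.1, 49.2 and 51.7 CPM in control and 83.2, 76.9 and 80.0 CPM in arsenite libraries, a log2 fold change of 0.65 (SE 0.10, edgeR adjusted p = 7.97e-06). QARS1, the glutaminyl-tRNA synthetase, went the other way. It had 172, 183 and 144 CPM in control and 129.8, 138 and 131 CPM in arsenite libraries, and its log2 fold change was -0.34 (SE 0.11, edgeR adjusted p = 0.00718). RARS1, the arginyl-tRNA synthetase, had 43.9, 52.2 and 56.7 CPM in control and 41.3, 44.1 and 40.8 CPM in arsenite libraries, and the groups overlapped (log2 fold change -0.29, SE 0.17, edgeR adjusted p = 0.134).

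The other cytosolic mRNAs that rose lay between SARS1 with a log2 fold change of 0.81 and AARS1 with 1.95, with WARS1 at 1.88, YARS1 at 1.61, IARS1 at 1.56, KARS1 at 1.48, MARS1 at 1.42, HARS1 at 1.36, LARS1 at 1.34, TARS1 at 1.33, CARS1 at 1.23 and NARS1 at 1.10. QARS1 and RARS1, the exceptions, both belong to the multi-tRNA synthetase complex. Of its 7 members 5 rose, with a median log2 fold change of 1.42 over the 7. The 12 cytosolic members outside the complex all rose, with a median of 1.34. HARS1 shares 176 of its 3335 exonic bases with DND1 on the same strand.

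IARS2, the mitochondrial isoleucyl-tRNA synthetase, had 38.2, 42.1 and 46.3 CPM in control and 122, 126 and 111 CPM in arsenite libraries, with a log2 fold change of 1.5 (SE 0.14, edgeR adjusted p = 1.93e-09). HARS2, for histidine, had 14.5, 10.4 and 9.99 CPM in control and 24.8, 24.2 and 36.3 CPM in arsenite libraries, a log2 fold change of 1.27 (SE 0.21, edgeR adjusted p = 9.78e-06). LARS2, for leucine, had 20.9, 24.7 and 27.4 CPM in control and 41.7, 39.4 and 44.1 CPM in arsenite libraries, a log2 fold change of 0.77 (SE 0.17, edgeR adjusted p = 0.000312). None of these groups overlapped. CARS2, for cysteine, had 17.8, 17.6 and 8.77 CPM in control and 26.6, 25.1 and 22.1 CPM in arsenite libraries (log2 fold change 0.72, SE 0.27, edgeR adjusted p = 0.0236). The CARS2 call was lost when arsenite replicate 1, arsenite replicate 2 or control replicate 3 was left out, where its log2 fold change lay between 0.42 and 0.89 over all alternatives.

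The mitochondrial members that did not pass had log2 fold changes from -0.18 (MARS2) to 0.35 (TARS2), with YARS2 at 0.32, EARS2 at 0.13, NARS2 at 0.02 and RARS2 at -0.16. EARS2, the glutamyl-tRNA synthetase, was among the steadiest, with control libraries at 67.4 ± 1.16 CPM (SD, n = 3) and levels of 74.2 ± 4.5 CPM (SD, n = 3) after arsenite. Of the untested members, AARS2 was at 6.58 ± 2.67 CPM in control and at 14.3 ± 2.04 CPM after arsenite (SD, n = 3 each). FARS2 had 9.12 and 7.62 CPM, PARS2 9.30 and 11.6 CPM, WARS2 7.07 and 8.03 CPM, and SARS2 1.41 and 4.05 CPM as wild-type control and arsenite means. No test was made on these.

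The 2 compartments could also be set side by side for the same amino acid, with EPRS1 as the partner of EARS2. Pairs with an untested mitochondrial member, such as SARS2, were left out. In wild-type cells the log2 fold change of the cytosolic member exceeded that of its mitochondrial partner in 9 of 10 tested pairs. The median gap over the 10 was 0.77. The gap was 2.05 between EPRS1 and EARS2, 1.60 between MARS1 and MARS2 and 1.29 between YARS1 and YARS2. Isoleucine and histidine stood out, since both partners rose to a like extent. IARS1 and IARS2 differed by 0.07 and HARS1 and HARS2 by 0.09. For arginine neither partner passed the test. These gaps are differences of fitted values and were not tested.

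The summed level of each set showed the same split in every line. In wild-type cells the 19 cytosolic members together were at 1279 ± 45.8 CPM in control and at 3929 ± 85.5 CPM after arsenite (SD, n = 3 each). The 16 mitochondrial members together were at 340.4 ± 18.8 and 476 ± 13.6 CPM (SD, n = 3 each). In the mutant lines the cytosolic sums lay between 1298 and 1501 CPM in control and between 3912 and 4427 CPM in arsenite libraries.

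Because cytosolic synthetase mRNAs moved together, the promoters were searched for the core of the amino acid response element, TGATGNAA, on both strands. The windows were those of RefSeq on GRCh38.p14, 300 bases from 250 before to 50 after an annotated start. Of the 19 cytosolic genes 16 had a window, and of the 16 mitochondrial genes 14. Some genes had more than 1 window. The motif was found in 7 of 21 cytosolic windows (33.3%), in 1 of 18 mitochondrial windows (5.56%) and in 3.62% of all 35116 windows. The matches are shown with 10 bases on either side, 5′ to 3′ on the strand of the gene, with the motif in capitals, so that the shared core can be read across genes.

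AARS1: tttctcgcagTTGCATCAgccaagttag
CARS1: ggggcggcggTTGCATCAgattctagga
GARS1: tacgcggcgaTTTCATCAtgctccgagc
IARS1: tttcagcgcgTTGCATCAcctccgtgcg
MARS1: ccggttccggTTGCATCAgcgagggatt
NARS1: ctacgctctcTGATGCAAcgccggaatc
TARS1: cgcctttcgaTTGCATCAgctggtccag
YARS2: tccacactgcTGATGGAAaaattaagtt

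On GRCh38.p14 the sequences shown lie at chr16:70289676-70289703 (minus strand) for AARS1, chr11:3057408-3057435 (minus strand) for CARS1, chr7:30594835-30594862 (plus strand) for GARS1 and chr9:92293693-92293720 (minus strand) for IARS1. Those of MARS1 at chr12:57488054-57488081 (plus strand), NARS1 at chr18:57621805-57621832 (minus strand), TARS1 at chr5:33440957-33440984 (plus strand) and YARS2 at chr12:32756077-32756104 (minus strand) complete the set. In CARS1, MARS1 and IARS1 the motif begins 2, 4 and 13 bases before the RefSeq start, in GARS1 33 and in AARS1 187 bases before it, while in TARS1 and NARS1 it begins at base 3 and base 15 of the transcript. The single mitochondrial match, in YARS2, begins 197 bases before the start. Most of the cytosolic matches read as TTGCATCA, the other strand of the motif, and GARS1 reads TTTCATCA.

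In wild-type cells the 7 cytosolic mRNAs with a match all rose after arsenite, with log2 fold changes from 1.10 to 2.69 and a median of 1.42. Of the 9 with a window and no match 7 rose, with log2 fold changes over the 9 from -0.34 to 2.17 and a median of 0.81. QARS1 and RARS1 are among the latter, but so are EPRS1 and WARS1, whose log2 fold changes were 2.17 and 1.88. Among the mitochondrial members YARS2, with the match, did not pass the test, and the 4 that rose were all among the 9 tested without a match, whose log2 fold changes ran from -0.18 to 1.5 with a median of 0.35. VARS1, YARS1 and LARS1 also rose but had no window, so they enter neither cytosolic group. How many of all genes with a match rose was not counted, and a link between match and rise was not tested. A match describes letters in a window and no binding was measured.

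The same 17 cytosolic mRNAs rose after arsenite in all 4 lines, and so did the same 4 mitochondrial ones. How many of all genes were called higher in all 4 lines was not counted. In S181E 18 of 19 cytosolic members rose (median log2 fold change 1.52), where 33.3% of all genes were called higher and 34.6% lower. In Y396E 18 rose (median 1.36), beside 31.3% of all genes higher and 33.8% lower. In RQ 17 rose and QARS1 fell (median 1.31), beside 32.4% higher and 32.3% lower. The medians over all genes were between -0.02 and 0.03 in the 4 lines.

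GARS1 and VARS1 led in each line. GARS1 had 109.9, 96.6 and 108 CPM in S181E control and 678, 600.3 and 692 CPM in S181E arsenite libraries (log2 fold change 2.62, SE 0.12, edgeR adjusted p = 3.48e-14). In RQ it had 122, 110.3 and 144 CPM in control and 732 and 728 CPM after arsenite (2.54, SE 0.13, edgeR adjusted p = 1.19e-13). In Y396E it went from 75.9, 79.5 and 89.2 CPM to 411, 340.3 and 445 CPM (2.29, SE 0.12, edgeR adjusted p = 2.3e-13). Control and arsenite groups were far apart in each line, and the Y396E groups lay lowest in both treatments. VARS1 had its largest change in RQ, with 102, 107 and 70.9 CPM in control and 672 and 798 CPM after arsenite (2.97, SE 0.14, edgeR adjusted p = 1.01e-13).

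Of the 10 tested mitochondrial members, 6 rose in S181E (median log2 fold change 0.71), 6 in Y396E (0.52) and 5 in RQ (0.60). TARS2 is counted among the risers in each mutant line. It had at most 9.14 CPM in S181E control and 9.99 CPM in RQ control libraries, and at least 13.9 CPM in every arsenite fusion library. Its arsenite libraries helped it to pass the limit of 10 CPM, so its rise is no independent result. RARS2, the mitochondrial arginyl-tRNA synthetase, fell in each mutant line. Its levels were 79.0, 98.8 and 77.3 CPM in wild-type control and 81.1, 69.6 and 78.4 CPM in wild-type arsenite libraries, groups that overlapped. In Y396E they were 98.5, 76.6 and 80.9 CPM in control and 56.9, 55.5 and 55.9 CPM in arsenite libraries, which did not overlap (log2 fold change -0.60, SE 0.12, edgeR adjusted p = 8.51e-05). The RARS2 call in S181E, with a log2 fold change of -0.27 (SE 0.12, edgeR adjusted p = 0.0439), was lost without S181E control replicate 1 or 2 or S181E arsenite replicate 2 or 3, and the RARS2 call in RQ (-0.50) was lost without RQ arsenite replicate 2. In S181E the CARS2 call was lost without control replicate 1, control replicate 3 or arsenite replicate 2. In Y396E the CARS2 call (0.62, edgeR adjusted p = 0.0442) was lost without any 1 of the 3 control libraries or without arsenite replicate 1 or 2, and the YARS2 call (0.43, edgeR adjusted p = 0.0311) without any 1 of the 3 control libraries or without arsenite replicate 2 or 3. In RQ the TARS2 call (0.92) was lost without arsenite replicate 2, the QARS1 call without arsenite replicate 1, and the FARSB call (0.29, edgeR adjusted p = 0.0282) without arsenite replicate 1 or 2 or control replicate 2.

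RARS1 did not follow the other cytosolic members. In wild-type cells its arsenite value was below its control value, while RARS1 rose in S181E (log2 fold change 0.51, SE 0.17, edgeR adjusted p = 0.00988) and in Y396E (0.45, SE 0.17, edgeR adjusted p = 0.0219). Its arsenite levels of 45.4, 47.2 and 48.6 CPM in S181E and 50.7, 45.9 and 42.0 CPM in Y396E were near those of wild-type, whereas its control levels were lower than in wild-type. Leaving out S181E control replicate 2 ended the first call, and leaving out Y396E control replicate 1, Y396E control replicate 3 or Y396E arsenite replicate 1 ended the second.

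**Figure D2:**
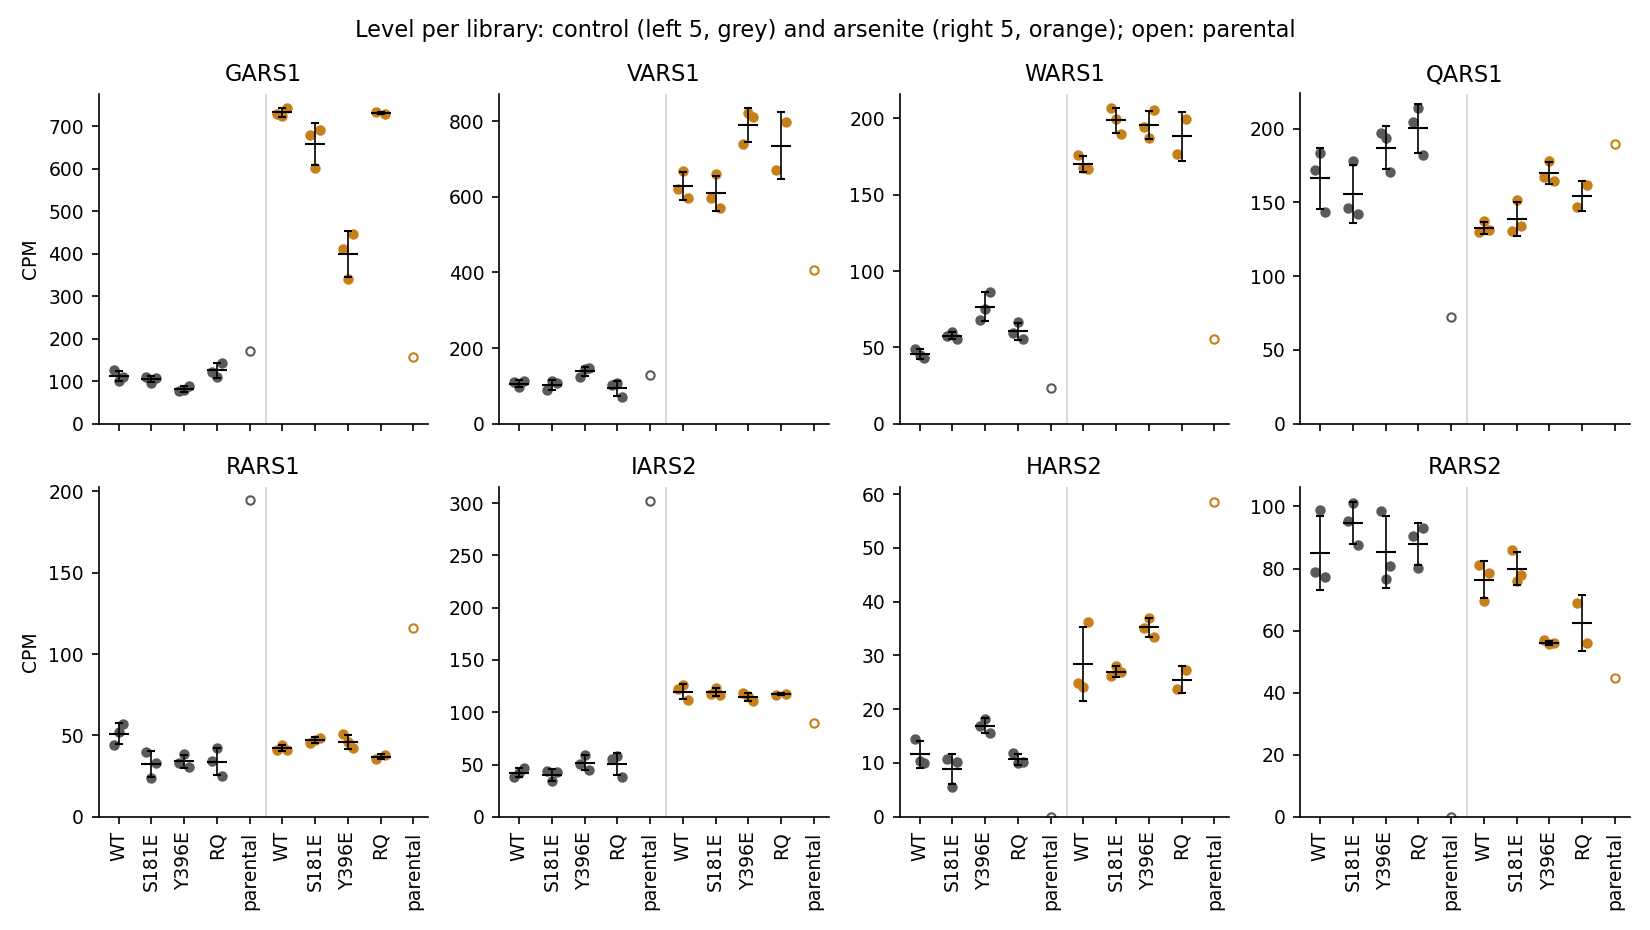
CPM in every library for 8 members, with control groups on the left of each panel (grey) and arsenite groups on the right (orange), open points for the parental libraries, and bars for the mean and SD of the fusion groups. GARS1 stays between 75.9 and 144 CPM in control fusion libraries and reaches 340.3 to 743 CPM in arsenite ones, with the 3 Y396E arsenite libraries lowest, while QARS1 does not rise in any fusion line.

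Scaling mattered for the size of these changes. The TMM factors could instead be taken over the 1532 genes that did not exceed their parental level. The median of all genes then moved to -0.28 in wild-type and to between -0.42 and -0.30 in the mutant lines. On this scale the cytosolic median in wild-type was 1.04 with 17 higher and 2 lower, and the mitochondrial median 0.01 with 3 higher and 2 lower. Both sets moved by about as much as all genes did. The mitochondrial split became 4 higher and 3 lower in S181E, 4 and 4 in Y396E and 5 and 1 in RQ, while 16 cytosolic members stayed higher and 1 lower in each of these lines. The RARS1 calls in S181E and Y396E were also lost on it, and FARSB in RQ turned to -0.01. With edgeR's own filter for low counts 15 mitochondrial members were tested in wild-type, of which 6 rose. Shares of all genes called on this scale or with this filter were not counted, so these splits have no background beside them.

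The parental libraries show what came with the beads in cells without the fusion protein. After arsenite, most synthetase mRNAs made up no larger share of the wild-type RIP libraries than of this background library. CPM are shares within a library and do not give the amount of RNA recovered on the beads. Of the 19 cytosolic members 6 lay above the parental arsenite level and of the 10 tested mitochondrial members 3, and the median ratio was 0.62 in both sets, beside 1.14 over all genes tested. GARS1 alone was at least 4-fold over the parental library (732 ± 9.99 CPM, SD, n = 3, against 157 CPM, a ratio of 4.67), where 9.18% of all genes were. WARS1 followed with 170.2 CPM against 55.2 CPM, a ratio of 3.09, and KARS1 with 458 CPM against 191 CPM, a ratio of 2.40. With a threshold of 2-fold these 3 genes passed, with 8-fold none of the 29 did, and with total counts as the scale GARS1 also stayed under 4-fold. Among the untested members WARS2 had 8.03 CPM against 0.952 CPM, which was 22 reads in the parental library.

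Cytosolic synthetase mRNAs were also higher after arsenite in the background, by 1 library per treatment. Of the 17 cytosolic members with reads in both parental libraries 15 were higher after arsenite, with a median log2 ratio of 1.39, close to the 1.36 of the wild-type fusion, and the remaining 2, HARS1 and SARS1, had reads only after arsenite. Over all 5162 genes with reads in both, 2701 were higher and the median log2 ratio was 0.07. Of the 7 such mitochondrial members 3 were higher, with a median of -0.25. The remaining 3 tested mitochondrial members, HARS2, NARS2 and RARS2, had reads only after arsenite. That makes 6 of the 10 higher, beside 6243 of all 8734 genes tested. EPRS1 went from 24.3 to 271 CPM without the fusion protein, MARS1 from 34.4 to 304 CPM and KARS1 from 29.7 to 191 CPM. These are single libraries, and 1 read was worth 0.675 CPM in the parental control and 0.0433 CPM in the parental arsenite library, and the values have no replicate error.

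GARS1 and RARS1 were the exceptions among the cytosolic members. GARS1 had 170.1 CPM in the parental control and 157 CPM in the parental arsenite library, while it rose from 112 to 732 CPM with wild-type IGF2BP1. QARS1 moved in opposite ways, with 72.2 and 189.6 CPM in the parental libraries and a fall with the fusion protein. IARS2, the mitochondrial member with the largest rise, fell from 302 to 89.9 CPM in the parental libraries. No test between the background and the fusion lines could be made with 1 parental library per treatment.

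**Figure D3:**
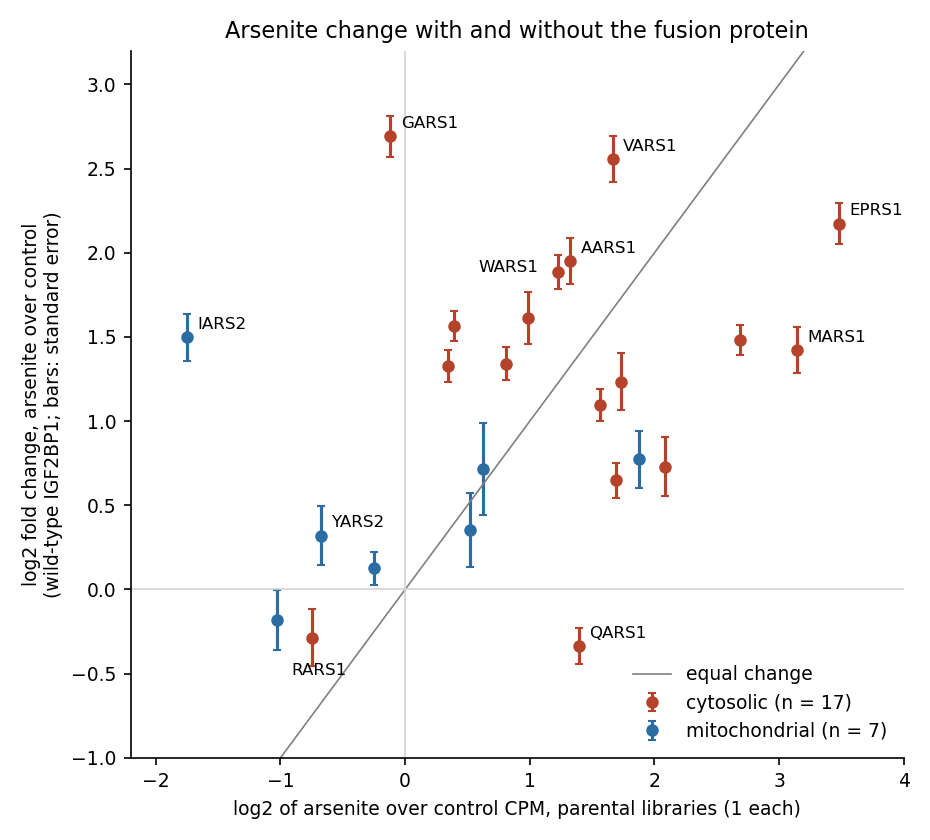
Log2 fold change of arsenite over control in wild-type IGF2BP1 RIP (y axis, bars for the standard error) against the log2 ratio of the 2 parental libraries (x axis, no replicates) for the 17 cytosolic (red) and 7 mitochondrial (blue) members with parental reads in both. Most cytosolic members lie to the right of 0 and above it, GARS1 lies high at a parental log2 ratio near 0, QARS1 lies below 0 on the fusion axis, and IARS2 is at the far left.

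Under control conditions 6 of the 29 tested members were at least 4-fold over the parental library in wild-type, beside 49% of all genes (4276). Of these genes 3572 had no read in the small parental control library and so passed at any threshold. KARS1, with a ratio of 5.48, was the only 1 of them with a parental read. HARS1, SARS1, HARS2, NARS2 and RARS2 had no parental read, and with a floor of 3 parental counts they were at least 8.36-fold, 18.7-fold, 5.74-fold, 11-fold and 42.0-fold higher. These bounds cover counting error only, and RARS2 shows their limit, since its 1033 reads in the parental arsenite library gave 44.7 CPM. In S181E and RQ the number at least 4-fold over the parental arsenite library was again 1 of the 19 cytosolic members, and in Y396E 0. The shares over all genes tested were 8.24% in S181E, 8.36% in RQ and 6.14% in Y396E.

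**Figure D4:**
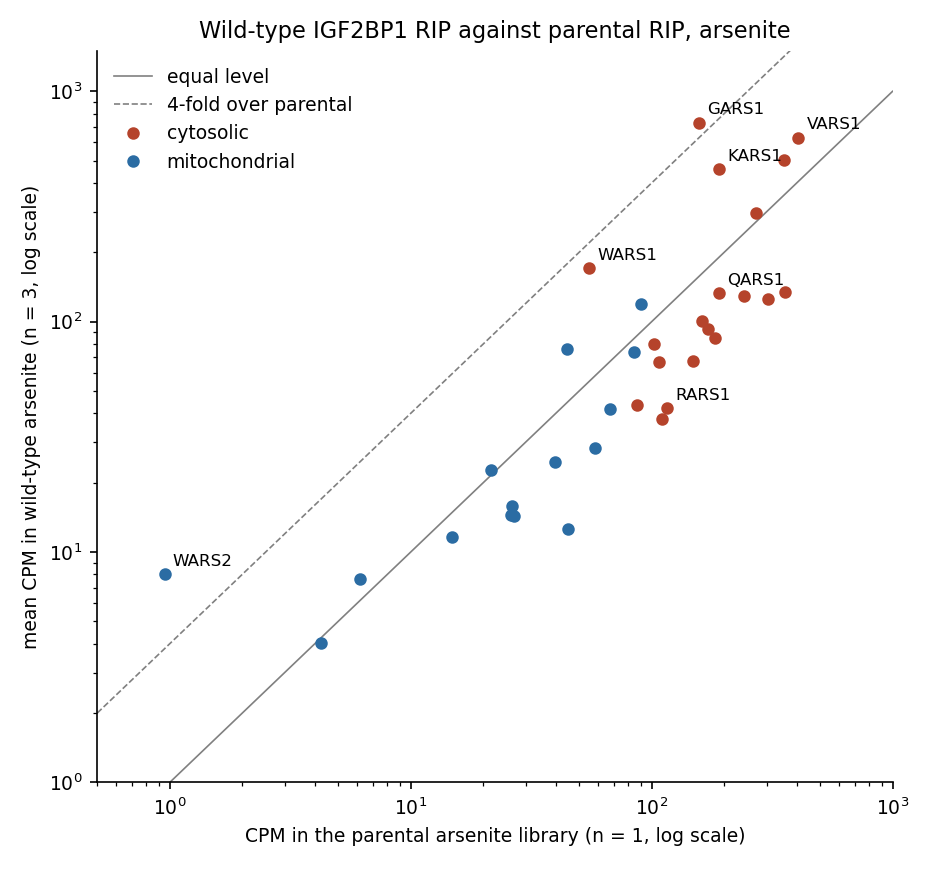
Mean CPM of 3 wild-type arsenite libraries (y axis) against CPM in the single parental arsenite library (x axis), both on log scales, for the 34 members with parental reads, cytosolic in red and mitochondrial in blue. The solid line marks equal levels and the dashed line 4-fold. GARS1 and the rarely read WARS2 lie above the dashed line, and most cytosolic members lie below the solid one.

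The mutants were compared with wild-type to ask whether the linker changes altered the RNAs recovered. Under control conditions S181E had 4 cytosolic members higher (WARS1, NARS1, FARSB and YARS1) and RARS1 lower, beside 12.8% of all genes higher and 8% lower. None of the 10 tested mitochondrial members was called, with 2 at an unadjusted p under 0.05 and DESeq2 also calling 0. RARS1 had 40.1, 23.9 and 33.3 CPM in S181E and 43.9, 52.2 and 56.7 CPM in wild-type control libraries, groups that did not overlap (log2 fold change -0.64, SE 0.17, edgeR adjusted p = 0.00964). YARS1, the tyrosyl-tRNA synthetase, had 56.7, 69.1 and 57.0 CPM in S181E and 54.7, 41.2 and 29.1 CPM in wild-type (0.55, SE 0.15, edgeR adjusted p = 0.0131). Wild-type replicate 3 was the lowest here and its omission ended the YARS1 and WARS1 calls.

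FARSB had 74.2, 58.4 and 73.8 CPM in S181E control libraries and 51.1, 49.2 and 51.7 CPM in wild-type (log2 fold change 0.45, SE 0.10, edgeR adjusted p = 0.00335). WARS1, the tryptophanyl-tRNA synthetase, had 57.3, 60.3 and 55.6 CPM against 49.0, 45.2 and 42.9 CPM (0.34, SE 0.10, edgeR adjusted p = 0.0164). Neither pair of groups overlapped. Without S181E control replicate 2 the number of members called was 3 in place of 5, and with a fit to only the groups compared it was 0.

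Y396E had 8 cytosolic members higher under control conditions (SARS1, WARS1, YARS1, HARS1, MARS1, VARS1, FARSB and NARS1) and RARS1, GARS1 and EPRS1 lower, with HARS2 and YARS2 higher among the mitochondrial ones. The shares over all genes were 16.2% higher and 12.7% lower. The calls of SARS1, WARS1 and YARS1 held in each of the 14 alternatives. The HARS2 and YARS2 calls (edgeR adjusted p = 0.0488 and 0.0468) were each lost in 9 of the 14, HARS2 without any library but wild-type control replicate 1, and YARS2 without any library but wild-type control replicate 3. Leaving out Y396E control replicate 2 also ended the calls of HARS1, MARS1, VARS1, FARSB, NARS1 and EPRS1. Among these, wild-type control replicate 3 was needed for MARS1, FARSB, NARS1 and EPRS1, wild-type control replicate 2 for VARS1, FARSB and EPRS1, Y396E control replicate 3 for VARS1 and FARSB, wild-type control replicate 1 for HARS1, and Y396E control replicate 1 for EPRS1. SARS1, the seryl-tRNA synthetase, had 60.5, 67.8 and 63.2 CPM in Y396E and 38.9, 42.6 and 32.3 CPM in wild-type (log2 fold change 0.76, SE 0.13, edgeR adjusted p = 0.000171). WARS1 had 67.7, 75.3 and 86.5 CPM, above all wild-type values (0.76, SE 0.10, edgeR adjusted p = 6.61e-06). In both genes the groups were clearly apart.

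GARS1 had 75.9, 79.5 and 89.2 CPM in Y396E control libraries, below the 100.4 to 126 CPM of wild-type (log2 fold change -0.45, SE 0.11, edgeR adjusted p = 0.00481). RARS1 had 32.8, 38.5 and 30.7 CPM (-0.56, SE 0.17, edgeR adjusted p = 0.0142). Both groups lay wholly below wild-type. With total counts as the scale, which moved the median of all genes to 0.32, both calls were lost, at -0.18 for GARS1 and -0.28 for RARS1. The RARS1 call was also lost without wild-type control replicate 3 or Y396E control replicate 3. The number of members called fell from 13 to 5 without Y396E control replicate 2, to 8 without Y396E control replicate 3 and to 8 without wild-type control replicate 3. It was 22 with total counts, and 7 with factors over the genes not exceeding their parental level, where 3 cytosolic members were higher and 4 lower. Shares of all genes called in these fits were not counted.

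RQ had YARS1, SARS1, NARS1 and WARS1 higher under control conditions and RARS1 lower, beside 3.51% of all genes higher and 2.83% lower. YARS1 had 74.5, 84.7 and 63.7 CPM (log2 fold change 0.83, SE 0.15, edgeR adjusted p = 0.00255) and SARS1 63.5, 69.3 and 54.5 CPM (0.72, SE 0.13, edgeR adjusted p = 0.00271), both above every wild-type library. WARS1 had 59.4, 66.8 and 55.8 CPM (0.41, SE 0.10, edgeR adjusted p = 0.0177) and RARS1 34.5, 42.0 and 25.2 CPM (-0.58, SE 0.17, edgeR adjusted p = 0.0398). None of the 10 mitochondrial members was called, with 1 at an unadjusted p under 0.05 and 0 by DESeq2. The RARS1 call was lost without RQ control replicate 1 or 3 or wild-type control replicate 2 or 3, and WARS1 without RQ control replicate 2 or wild-type control replicate 3. The number of members called was 3 in place of 5 without wild-type control replicate 3, and 0 in a fit to only the groups compared. The 3 mutants were each set against the same wild-type control libraries, and the calls of RARS1, WARS1, YARS1 and NARS1 in all 3 share 1 set of wild-type values.

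After arsenite few of these mRNAs were called between the S181E or RQ line and wild-type. In S181E only FARSB was called, with 114, 103 and 106 CPM against 83.2, 76.9 and 80.0 CPM in wild-type (log2 fold change 0.43, SE 0.10, edgeR adjusted p = 0.00941), beside 2.2% of all genes higher and 5.34% lower. The call was lost without S181E arsenite replicate 1 or wild-type arsenite replicate 2. Same-numbered libraries of these groups varied together, and with the replicate number as a block FARSB kept its call (0.43, edgeR adjusted p = 0.0134). In RQ only SARS1 was called, with 89.6 and 123 CPM against 67.3, 69.7 and 64.0 CPM (0.67, SE 0.14, edgeR adjusted p = 0.0257), beside 0.286% higher and 0.218% lower. It rested on 2 RQ libraries and was lost without RQ arsenite replicate 2 or without wild-type arsenite replicate 1, 2 or 3. Among the mitochondrial members edgeR and DESeq2 called 0 in both comparisons, with 1 at an unadjusted p under 0.05 in each. Of the 19 cytosolic members 5 had an unadjusted p under 0.05 in each comparison, and DESeq2 also called MARS1 and NARS1 in RQ.

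Y396E differed from wild-type in 12 of the 29 tested members after arsenite, beside 13.1% of all genes higher and 19.4% lower. Higher were MARS1, FARSA, SARS1, AARS1, HARS1, QARS1, VARS1 and FARSB among the cytosolic, and TARS2 and YARS2 among the mitochondrial members. GARS1 and RARS2 were lower. Several of these calls rested on single libraries. Of the 6 fits without 1 library, FARSB was lost in all but that without Y396E replicate 3, HARS1 in all but that without wild-type replicate 3, VARS1 without wild-type replicate 1 or 3 or Y396E replicate 2 or 3, TARS2 without wild-type replicate 1 or 3 or Y396E replicate 1, and YARS2 without wild-type replicate 3 or Y396E replicate 2. FARSB was also lost with the replicate number as a block. GARS1, MARS1, FARSA and SARS1 kept their calls in each of the 14 alternatives. GARS1 had 411, 340.3 and 445 CPM in Y396E against 729, 724 and 743 CPM in wild-type, the largest change in size of any member in the 6 comparisons with wild-type (log2 fold change -0.85, SE 0.11, edgeR adjusted p = 5.72e-06). RARS2 had 56.9, 55.5 and 55.9 CPM against 81.1, 69.6 and 78.4 CPM (-0.42, SE 0.12, edgeR adjusted p = 0.00841), a call that was lost with total counts.

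MARS1, the methionyl-tRNA synthetase, had 201, 208 and 205 CPM in Y396E and 121, 129 and 124 CPM in wild-type arsenite libraries (log2 fold change 0.74, SE 0.13, edgeR adjusted p = 0.000172). FARSA had 114, 110.2 and 105 CPM against 64.6, 66.3 and 70.8 CPM (0.74, SE 0.17, edgeR adjusted p = 0.00245). Both lay above every wild-type library. The medians were 0.23 over the cytosolic and 0.23 over the mitochondrial members, beside 0.01 over all genes. With factors over the genes not exceeding their parental level the median of all genes moved to -0.26, the medians turned to -0.04 in both sets, and 7 members were called, of which 3 cytosolic were higher, 3 cytosolic lower and 1 mitochondrial lower. Relative to all genes the 2 sets thus stayed on the same side. Shares of all genes called on that scale were not counted.

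Of the 10 members higher in Y396E after arsenite, 9 had a parental arsenite level above the means of both lines, such as MARS1 with 304 CPM, FARSA with 149 CPM and AARS1 with 357 CPM. VARS1 was the exception, with 407 CPM in the parental library, below both lines. GARS1 with 157 CPM and RARS2 with 44.7 CPM, the members lower in Y396E, also lay below both. A level below the parental one was common among the members. Only 6 of the 19 cytosolic and 3 of the 10 mitochondrial ones lay above it in wild-type arsenite, and 5 and 3 in Y396E arsenite. The share among all genes called higher in Y396E is not given here. The part of the background in these differences was not tested.

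**Figure D5:**
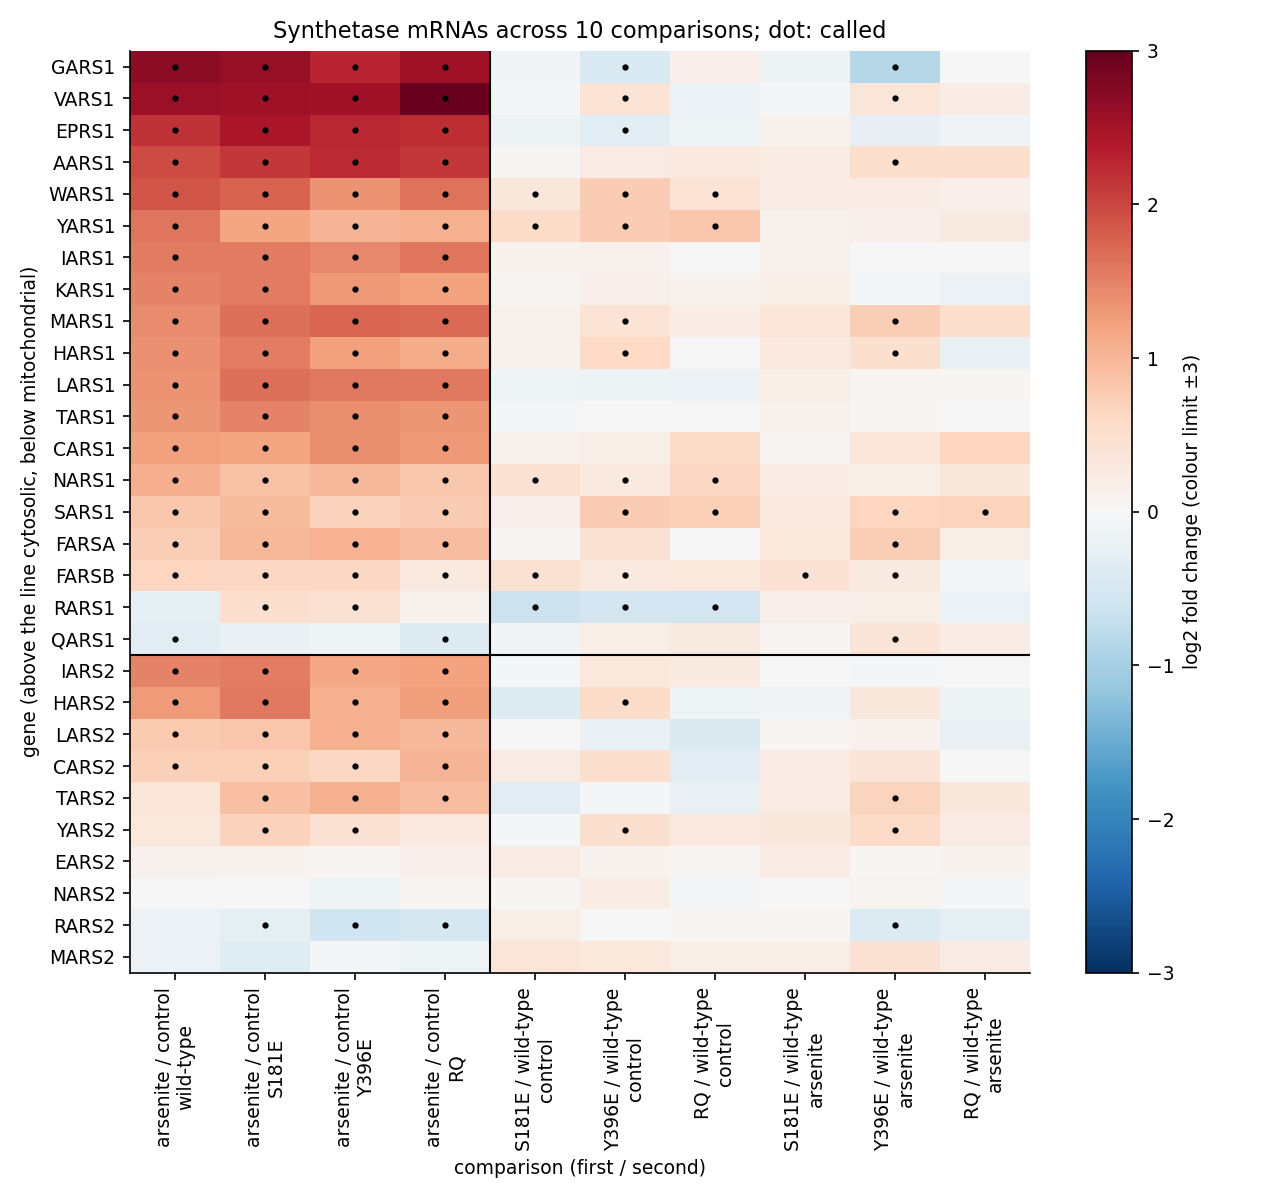
Log2 fold change (colour, from -3 in blue to 3 in red) of the 29 tested members (rows, cytosolic above the line) in 10 comparisons (columns, arsenite over control in 4 lines on the left, mutants over wild-type on the right), with a dot for each call. The left block is red for most cytosolic rows and for IARS2, HARS2, LARS2 and CARS2, and GARS1 is the bluest cell of the right block, in Y396E after arsenite.

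Whether the arsenite change itself differed between a mutant and wild-type was tested by the interaction term. For S181E edgeR called 0 of 29 members, with 2 at an unadjusted p under 0.05, while DESeq2 called RARS1 (log2 difference 0.84, DESeq2 adjusted p = 0.0394, against 0.80 and an edgeR adjusted p of 0.14). The shares over all genes were 0.114% higher and 0.275% lower. For RQ both tools called 0, with 4 members at an unadjusted p under 0.05, beside 0.0572% and 0.0114% of all genes.

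For Y396E the interaction was called for WARS1 alone, beside 0.447% of all genes higher and 2.4% lower. WARS1 had 176, 167 and 167 CPM in wild-type arsenite and 194, 187 and 206 CPM in Y396E arsenite libraries, so that Y396E, which started higher, rose by less (log2 difference -0.53, SE 0.14, edgeR adjusted p = 0.0376). The call was lost in 10 of the 12 fits that left out 1 library, all but those without wild-type control replicate 1 or Y396E control replicate 1, and the difference lay between -0.61 and -0.43 over those 12 fits. Without wild-type control replicate 1, 3 members were called. The lower GARS1 level of Y396E was present in both treatments, and its interaction of -0.40 did not pass (SE 0.16, edgeR adjusted p = 0.184). RARS1, with an interaction of 0.73 (SE 0.24), was called by DESeq2 and not by edgeR (edgeR adjusted p = 0.0917).

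Other genes of the pathway were read from the same fit. Of 13 scaffold, charging and editing partners 8 were tested, and EEF1E1, AARSD1, TARS3, SEPSECS and PSTK were not. The 8 mix partners of both compartments. In wild-type cells after arsenite 2 of them were called higher and 2 lower, beside 35.4% and 31.8% of all genes tested. In wild-type cells after arsenite AIMP1, a scaffold of the multi-tRNA synthetase complex, rose (log2 fold change 1.03, SE 0.15, edgeR adjusted p = 1.46e-06) and so did GATB (1.43, edgeR adjusted p = 0.000583). GATB and GATC are subunits of the amidotransferase that makes mitochondrial glutaminyl-tRNA, and GATC fell (-0.98, edgeR adjusted p = 1.17e-06). DTD2, which removes wrongly attached amino acids, also fell (-1.19, edgeR adjusted p = 3.74e-10). AIMP2 (0.27), DTD1 (-0.02), QRSL1 (-0.31) and MTFMT (0.13) did not pass. The median over the 8 was 0.06, beside 0.03 over all genes tested. GATC shares 377 of its 4238 exonic bases and DTD2 195 of its 2713 with another gene on the same strand. In Y396E against wild-type after arsenite AIMP1 (-0.49, edgeR adjusted p = 0.0109) and DTD2 (-0.36, edgeR adjusted p = 0.00702) were lower, and AIMP2 (0.50, edgeR adjusted p = 0.0273) and DTD1 (0.51, edgeR adjusted p = 0.0313) higher. Over all genes tested 13.1% were higher and 19.4% lower in that comparison.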

How the data were processed

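RIP-seq libraries were analysed from 25 tables of read counts per gene that the authors deposited. Per the file headers, featureCounts 2.0.6 counted reads on exons of GENCODE v46 basic genes with the reverse-strand setting, after STAR 2.7.11b alignment to hg38 (submitters' processing notes, which also name bcl2fastq 2.20.0.422 and FastQC 0.11.9). Counts were not normalized. Multi-mapping reads and reads on several genes were left out, which lowers genes that overlap another on the same strand. Symbols came from GENCODE v44 by Ensembl ID (62541 of 63086 matched).

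Protein-coding genes above 10 CPM in at least 11.5 of the 23 fusion libraries were tested (8734 genes) with edgeR 4.0.16 in R 4.3.3 (TMM factors, quasi-likelihood F test, 1 model of 8 groups, Benjamini-Hochberg over all genes tested). A call needed both an adjusted p below 0.05 and a change exceeding 20%. Printed CPM used TMM factors over all 25 libraries. Parental libraries entered no test, and enrichment was a group's mean CPM over the parental CPM of that treatment. The dishes were plated and grown separately, but p-values measure only the spread between libraries of 1 line each.

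Replicate numbers are shared between groups. Deviations of same-numbered libraries from their group means correlated at 0.28 to 0.39 for all 3 pairs of S181E and wild-type in arsenite, and numbers pair those libraries on the ground of this correlation. In no other comparison did every one of at least 3 pairs exceed 0.1. Alternatives were DESeq2 1.42.0, other scalings, filters and call rules, a fit to only the groups compared, a replicate block and leaving out each library. The fit was tested on simulated data. The members and lists were chosen with earlier results of these data known. Named with values in every library were GARS1, the 3 called lowest and highest members per compartment in wild-type arsenite against control, and the 2 called lowest and highest in each comparison of a mutant with wild-type and each interaction. Levels between genes were compared as CPM per kb of exon. Promoters were RefSeq windows (GRCh38.p14). RNA-Seq was not analysed here.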

Additional observations from a re-analysis of the deposited data

Results flagged for a closer look

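WARS1 had an arsenite change that differed between Y396E and wild-type in the test of the interaction, with a log2 difference of -0.53 (edgeR adjusted p = 0.0376). The fitted arsenite change was 1.36 in Y396E and 1.88 in wild-type, and all 3 Y396E control libraries lay above all 3 wild-type control libraries. No group had the 4 libraries needed for a check of single outlying samples.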

How the results depend on the processing

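The 4 counts of members called after arsenite stayed within 1.5 times of their values under every alternative run, between 22 and 28 with other settings (main counts 22 in wild-type, 25 in S181E, 25 in Y396E and 24 in RQ) and between 21 and 25 when 1 library was left out. Shares of all genes called under the alternatives were not counted. Mutant comparisons were less settled. With total counts the number called was 9 for S181E and 22 for Y396E in control, and 8 for S181E and 19 for Y396E in arsenite (main 5, 13, 1 and 12). With TMM over the genes not exceeding their parental level it was 7 for Y396E in control, and 0 for S181E and 7 for Y396E in arsenite. A fit to only the groups compared gave 0 for S181E, 5 for Y396E and 0 for RQ in control, and 5 for S181E and 6 for RQ in arsenite. DESeq2's Wald test gave 3 for RQ in arsenite, 1 for the S181E interaction and 2 for the Y396E interaction, which was 0 with DESeq2 size factors and with filterByExpr.

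With the replicate block, 0 members were called for RQ in arsenite in place of 1 (SARS1, adjusted p = 0.174), and no other count left the range of 1.5 times. In RQ and wild-type arsenite the numbers are not shown to pair the libraries. Leaving out 1 library gave 3 to 6 members for S181E, 5 to 13 for Y396E and 3 to 6 for RQ in control, 0 to 1 for S181E and for RQ and 8 to 11 for Y396E in arsenite, and 0 to 3 for the Y396E interaction. In arsenite, 3 members were at least 2-fold and 0 at least 8-fold over the parental library, and 0 at least 4-fold with total counts (main 1).

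In 3 cases a median turned by more than the spread between replicates, and 1 called member changed sign. With TMM over the genes not exceeding their parental level the medians for Y396E against wild-type in arsenite were -0.04 (cytosolic, -0.036) and -0.04 (mitochondrial, -0.040), and FARSB in RQ after arsenite was -0.011. Without wild-type control replicate 3 the cytosolic median of S181E against wild-type in control was -0.0034, and it lay between that and 0.12 over the 6 fits without 1 library. The cause was not tested. Mitochondrial medians near 0 had no settled sign, such as 0.011 for S181E (-0.037 to 0.17 over its alternatives) and -0.00044 for RQ (-0.11 to 0.092) in control, and -0.019 for RQ in arsenite. With 2 or 3 libraries a group, 1 parental library per treatment and few parental control reads, small differences were not detectable, and 6 mitochondrial members were not tested, of which VARS2 and SARS2 share most or all exonic bases with another gene.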
